A study of Mus musculus with 10 samples.

Results

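Fibroblasts and endothelial cells of the mouse axillary lymph node were compared between animals given bacterial lipopolysaccharide (LPS) and naive animals. The cells came from the stromal single-cell library, in which each condition carried its own hashtag, an antibody-borne barcode added before the cells were mixed. A cell was assigned to a condition when 1 hashtag reached a count of 10 and exceeded the next one 3-fold or more, and was kept with at least 500 gene UMIs (unique molecular identifiers, 1 per captured RNA molecule) and at most 10% mitochondrial UMIs. Fibroblasts had at least 5 UMIs over Col1a1, Col1a2, Col3a1 and Dcn with no UMI of Ptprc or Pecam1. Endothelial cells had at least 2 UMIs over Pecam1 and Cdh5, no Ptprc and fewer than 3 of Col1a1. These rules gave 722 cells of 56333 barcodes in the series: 227 fibroblasts and 170 endothelial cells after LPS, and 130 fibroblasts and 195 endothelial cells from naive nodes.

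All mice were wild-type female BALB/c animals, 8 weeks old. By the labels' protocol the LPS group received LPS subcutaneously and was killed after 72 h, and the naive group was untreated. The treatment label of the library itself names tumour and control mice, so the LPS condition is taken from the name of the hashtag and the library description. The same library held nodes of mice with 4T1 or 67NR mammary tumours in the fourth fat pad at 18 days, which are given here as levels for reference. By the labels each condition pooled at least 3 mice under 1 hashtag, with no map from cells to mice. Each condition is therefore 1 pool, no difference has a replicate check, and no p-value was computed. Cells cannot stand in for animals. Every interval below is an exact 95% interval that covers counting error only, and a gene with fewer transcripts per cell cannot be told apart from a gene used by fewer cells.

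LPS is a component of the outer membrane of Gram-negative bacteria. It is passed by the plasma protein Lbp and by Cd14 to the receptor complex of Tlr4 and Ly96, which signals through Myd88 to NF-kB and through Ticam1 to interferon-beta and the interferon-stimulated genes. In a lymph node, reticular fibroblasts make the chemokines that place T and B cells, adventitial fibroblasts marked by Pi16 and Dpp4 surround the vessels, high endothelial venules admit lymphocytes from blood, and lymphatic endothelium lines the sinuses. By its title the series asks how Tlr4 links fibroblasts and monocytes in the node, and the LPS arm shows node stroma after the receptor's ligand was given without a tumour.

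Of the gene lists examined, the type I interferon list had the most members at least 2-fold higher after LPS in both cell classes, so the promoters of 4 genes described below are shown. The sequences are from RefSeq (GRCm38.p6), 5′ to 3′ on the strand of the gene, with capitals on each match to TTTCNNTTTC, the core of the interferon-stimulated response element, read on both strands.
Ifit1, chr19:34640784-34640833 (+): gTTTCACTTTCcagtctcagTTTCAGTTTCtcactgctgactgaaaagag
Rsad2, chr12:26456543-26456592 (-): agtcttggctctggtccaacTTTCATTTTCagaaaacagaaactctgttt
Isg15, chr4:156200855-156200904 (-): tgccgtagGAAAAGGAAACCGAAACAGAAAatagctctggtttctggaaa
B2m, chr2:122147528-122147577 (+): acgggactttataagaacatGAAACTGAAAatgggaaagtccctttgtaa
Ifit1 held 2 matches, the nearer 85 bases before the start. The match of Rsad2 lay 120 bases before the start and that of B2m 139. Isg15 held 3 overlapping matches, the nearest 66 bases before its start. The core was found in 943 of 27025 promoters in the table (3.49%), each taken as 250 bases before to 50 bases after the first listed start. Of the 13 interferon genes at least 2-fold higher in endothelial cells, 11 had a promoter in the table and 6 of these held the core (Bst2, Ifit1, Ifit3, Ifit3b, Isg15 and Rsad2). In the whole list of 29 members, 11 of 20 matched promoters held it. The members higher in endothelial cells are thus not set apart from the list by these letters. Of the 6 list members at least 2-fold higher in fibroblasts, 5 had a promoter in the table and 4 of these held the core. With so few promoters, a difference of the fibroblast set from the list was not tested. B2m was the 1 of 4 class I genes past 2-fold in fibroblasts that held it. In the endothelial genes counted, 218 of 6370 promoters held it (3.42%). The window of Irf7 did not hold these letters. A match is a run of letters and was not tested as a binding site.

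The pools differed in depth and in makeup. Median UMIs per cell were 16824 and 12109 in LPS and naive fibroblasts, and 8612 and 7314 in LPS and naive endothelial cells. Summed UMIs were 3824094 and 1611685 in fibroblasts, and 1800304 and 1783109 in endothelial cells. Levels below are summed UMIs per 1000000 UMIs of the pool (CPM), and differences are log2 ratios of LPS over naive CPM. The median count of a cell's own hashtag was 3839 in LPS and 809 in naive fibroblasts, and the next hashtag was within 10-fold in 8 of 227 and 49 of 130 cells, with LPS the next one in 73 of those 130 naive fibroblasts. The naive assignments thus rested on a smaller margin than the LPS ones, and the counts with hashtags called at 10-fold are in the closing section. The stromal library shared between 6 and 20 of its 3507 barcodes with each of the other 4 libraries.

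The class rules used some of the marker genes, such as Pecam1, Cdh5, Col1a1 and Dcn, so only markers outside the rules bear on the class names. In fibroblasts the 5 NK cell markers and the 6 epithelial markers had no UMI in either pool. The 6 pan-endothelial markers summed to 21 and 23 UMIs in LPS and naive fibroblasts, the neutrophil markers to 9 and 3, the B cell markers to 5 and 2, and the T cell markers to 72 and 54. The 7 blood endothelial markers were not absent from fibroblasts, with 6253 and 1462 UMIs (1635 and 907.1 CPM), of which Ly6c1, also carried by 173 of 227 LPS fibroblasts, gave 3251 and 573. In endothelial cells the pan-endothelial markers summed to 7573 and 6912 UMIs and the fibroblast markers to 388 and 605. Platelet markers summed to 106 and 356 UMIs in LPS and naive endothelial cells, and erythroid markers to 0 and 430.

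Fibroblasts made up 37.2% of LPS cells (227 of 610, 95% interval 33.4 to 41.2) and 31.7% of naive cells (130 of 410, 27.2 to 36.5). Endothelial cells made up 27.9% (170 of 610, 24.3 to 31.6) and 47.6% (195 of 410, 42.6 to 52.5). The sort and the loading set these shares. Cells that met neither rule were 213 after LPS and 85 in the naive pool, and 158 and 59 of these carried fibroblast genes together with at least 1 Pecam1 UMI. Among fibroblasts, those with 3 or more Ccl19 UMIs, called Ccl19-high, were 55 of 227 after LPS and 43 of 130 in the naive pool (24.2% and 33.1%). Fibroblasts with 2 or more UMIs over Pi16, Dpp4, Cd248 and Sema3c and fewer than 3 of Ccl19, called Pi16/Dpp4-type, were 143 of 227 (63.0%, interval 56.4 to 69.3) and 50 of 130 (38.5%, interval 30.1 to 47.4). With every cell thinned to 1000 UMIs, cells with a Pi16/Dpp4-type UMI and no Ccl19 were 50.7% and 30% of fibroblasts, so the shares stood apart at equal depth too. The naive fibroblasts of a second library, prepared for myeloid and stromal cells, held 50 Pi16/Dpp4-type cells of 106 (47.2%). Since the mix of subclasses differed, several genes are also given within a subclass.

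In fibroblasts Saa3, Cfb, Cxcl13, Irf7, Lbp, H2-D1, H2-K1 and B2m were higher after LPS than in either naive pool, and Hspa1a, Hspa1b, Hsph1, Dnajb1, Bag3 and Fst were lower than in either. Of most lists only a few members were past 2-fold. Of 8923 genes with at least 50 UMIs over both pools, 144 were at least 2-fold higher after LPS (1.61%). At least 2-fold lower were 182 (2.04%), and 3.65% were past 2-fold either way. Leaving out the top cell of each pool took 48 of the 326 under 2-fold, 42 of them among the lower genes. The counts in that setting were 175 higher and 123 lower, so the larger side changed. Under edgeR's TMM scaling, which moved the median gene to 0.06, the split was 185 higher and 139 lower. The naive pool of the second library gives the size of such counts with no treatment. There 336 of 7253 genes stood at least 2-fold from the stromal naive pool (4.63%), 256 higher (3.53%) and 80 lower (1.1%), a comparison that also holds library and sort. The share past 2-fold after LPS, 3.65%, was thus below the 4.63% between naive pools. With hashtags called at 10-fold the counts, higher and lower, were 359 and 282 after LPS against 390 between naive pools. They were 185 and 139 against 309 under TMM scaling, and 53 and 27 against 53 with cells thinned to 1000 UMIs. The order of the counts thus depended on the settings, and the comparisons counted different numbers of genes. The main genes below are given beside both naive pools. Of the 144 higher genes, 40 were at least 2-fold above both naive pools (0.448% of genes counted), and 82 of the 182 lower genes were at least 2-fold below both (0.919%). Against the second naive pool, 34 of the 144 and 24 of the 182 went the other way.

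Saa3, an acute-phase serum amyloid made outside the liver, stood furthest from naive. It had 992 UMIs after LPS and 1 UMI in the naive pool, 259.4 and 0.62 CPM, a log2 ratio of 8.71 (95% interval 6.23 to 14.01). The second naive pool also had 1 UMI. The tumour pools had 2.17 CPM (4T1) and 23.9 CPM (67NR). The Saa3 UMIs lay in 34 of 227 LPS fibroblasts, 49% of them in 1 cell, and 717 of the 992 in Ccl19-high cells. Few cells thus carried the Saa3 signal. Another acute-phase gene, Lcn2, the iron-siderophore binder lipocalin 2, had 36 UMIs after LPS and 0 in the naive pool, with 16 in the second naive pool. Taken whole, the acute-phase and antimicrobial list had 1 of 10 counted genes past 2-fold and a median log2 ratio of 0.08, against -0.01 for all genes and -0.53 against the second naive pool.

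Cfb, complement factor B of the alternative pathway convertase, was spread over most cells. It had 2056 UMIs in 206 of 227 LPS fibroblasts and 163 UMIs in 79 of 130 naive ones, 537.6 and 101.1 CPM. The log2 ratio was 2.41 (interval 2.18 to 2.65), a 5.32-fold higher level, and the second naive pool stood at 153.3 CPM. The levels with tumours were 203.4 CPM (4T1) and 167.7 CPM (67NR), between naive and LPS. The ratio was 2.14 in Ccl19-high and 2.81 in Pi16/Dpp4-type cells, so Cfb was higher in both subclasses. The membrane regulator Cd55, a marker of adventitial fibroblasts as well, was higher by 1.07 (0.90 to 1.24). C3, the substrate of the convertase, was at 4041 and 3164 CPM, a log2 ratio of 0.35. The complement list had 2 of 9 counted members past 2-fold, Cfb and Cd55, none lower, and a median of 0.63. Cfb alone was past 2-fold against both naive pools.

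Cxcl13, the chemokine that draws B cells to follicles, had 2937 UMIs after LPS and 275 in the naive pool. Its levels were 768.0 CPM after LPS, 170.6 CPM in naive fibroblasts, 217.9 CPM in the second naive pool, 478.9 CPM with 4T1 and 169.4 CPM with 67NR. The log2 ratio was 2.17 (1.99 to 2.35), and 131 of 227 LPS cells against 38 of 130 naive cells carried a UMI. It was higher in Ccl19-high cells, by 3.43, and in Pi16/Dpp4-type cells, by 1.11. The T cell zone chemokines went the other way. Ccl19 was lower by 0.86 on the log2 scale, and Ccl21a stood at 1018 CPM after LPS, 2163 CPM in naive and 3352 CPM in second naive fibroblasts, a log2 ratio of -1.09. Both have near-identical copies in the mouse genome that can share reads, so their counts are uncertain, and 28% of the naive Ccl21a UMIs were in 1 cell. Cxcl12, a retention factor for leukocytes, differed by -0.30. The list of homeostatic stromal factors had 1 of 12 counted members at least 2-fold higher and 1 lower, with a median of -0.19, and of -0.55 against the second naive pool.

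Of the class I antigen presentation genes, the heavy chains H2-D1 and H2-K1 and the light chain were higher after LPS. H2-D1, a classical class I heavy chain, was detected in 227 of 227 LPS and 130 of 130 naive fibroblasts, at 7404 and 3068 CPM (log2 ratio 1.27, interval 1.23 to 1.32). H2-K1, also a classical heavy chain, was at 2777 and 1154 CPM (1.27, 1.20 to 1.34). B2m, the light chain shared by all class I molecules, was at 5166 and 2464 CPM (1.07, 1.02 to 1.12). The second naive pool lay at 2259 CPM for H2-D1, 1087 CPM for H2-K1 and 2065 CPM for B2m, below the stromal naive pool in each case, and the 4T1 and 67NR pools had 2367 and 2241 CPM of H2-D1, 1109 and 986 CPM of H2-K1 and 2199 and 1948 CPM of B2m. LPS fibroblasts were thus alone at the top for these 3 genes among 5 pools. H2-Q6, a non-classical gene, was higher by 1.02. Class I genes are close paralogs, so reads can be split among H2 members. In the presentation list, 4 of 19 members were past 2-fold higher, none lower, all 4 also against the second naive pool, and the median was 0.41. MHC class II had 4 counted members, none past 2-fold, with a median of -0.24.

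Interferon genes in fibroblasts depended on the naive pool taken. Irf7, the transcription factor that amplifies interferon production, had 584 and 60 UMIs, 152.7 and 37.2 CPM, a log2 ratio of 2.04 (1.65 to 2.44). The second naive pool had 63.2 CPM and the tumour pools 25.5 CPM (4T1) and 33.4 CPM (67NR), so Irf7 stood above all 4. Rsad2, the antiviral enzyme viperin, had 100 UMIs after LPS and 5 in the naive pool (3.08, 1.80 to 4.73), but 42.1 CPM in the second naive pool against 26.2 CPM after LPS. Ifit1, an antiviral RNA-binding protein, was at 250.5 CPM after LPS, 98.0 CPM in naive and 199.8 CPM in second naive fibroblasts (1.35, 1.11 to 1.61). Ifi27l2a stood at 1386, 446.1 and 765.6 CPM in the same order (1.64, 1.52 to 1.75). Of 24 counted members of the type I interferon list, 6 were past 2-fold higher and none lower, with a median of 0.28 that was 1.21 with cells thinned to 1000 UMIs and -0.09 without cells of 3 or more immune marker UMIs. Against the second naive pool the median was -0.15, and 1 member, Irf7, was past 2-fold against both. The interferon-induced chemokine genes Cxcl9 and Cxcl10 differed by 0.73 and -0.28.

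**Figure D1:**
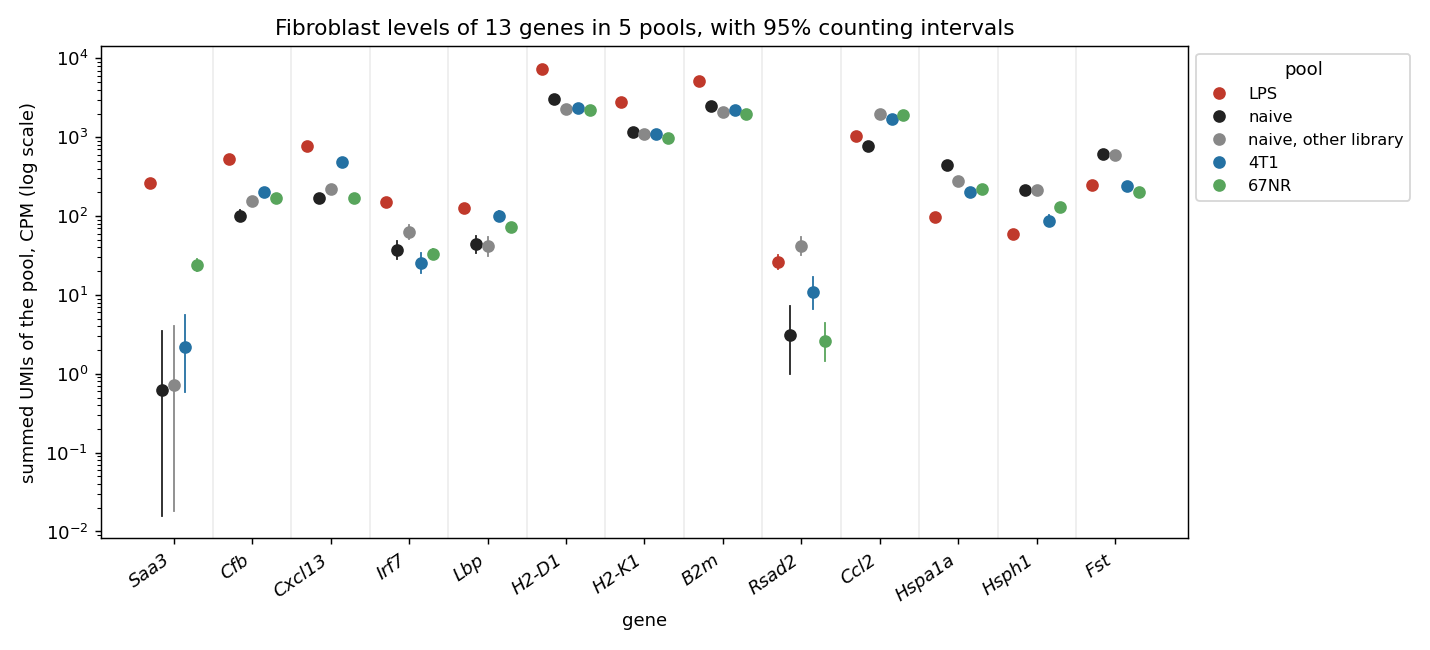
Fibroblast levels of 13 genes as summed UMIs in CPM (log axis) in the LPS pool, 2 naive pools and the 4T1 and 67NR pools. Points are pools, lines are 95% counting intervals; Irf7, Cfb, H2-D1, H2-K1, B2m and Saa3 stood highest after LPS, whereas Rsad2 and Ccl2 were higher in the second naive pool.

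Of the Tlr4 receptor complex, no gene had an interval clear of 0. Tlr4 had 250 and 99 UMIs, 65.4 and 61.4 CPM, a log2 ratio of 0.09 (-0.25 to 0.44), with 73.4 CPM in the second naive pool. Ly96 differed by -0.32 (-0.88 to 0.26) and Cd14 by 0.71 (-0.05 to 1.55), on few UMIs in the case of Cd14 (88 over both pools). Without cells of 3 or more immune marker UMIs Cd14 was at -0.89 on 21 UMIs, and Tlr4 in cells thinned to 1000 UMIs was at -0.80 on 16. Myd88, the main adaptor, was lower by 0.58 on the log2 scale. Lbp, the LPS carrier, was higher, with 479 and 71 UMIs and levels of 125.3 CPM after LPS, 44.1 CPM in naive and 41.4 CPM in second naive fibroblasts (1.51, 1.15 to 1.89). Lbp was the 1 of 11 counted genes of the Tlr4 list past 2-fold. The NF-kB target and feedback list had 0 of 21 genes past 2-fold and a median of -0.20, and of -0.45 against the second naive pool.

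Monocyte-attracting and inflammatory genes showed no common direction in fibroblasts as a whole. Ccl2, the main ligand of the monocyte receptor Ccr2, was at 1028 CPM after LPS, 786.1 CPM in naive and 1953 CPM in second naive fibroblasts, with 1682 CPM (4T1) and 1905 CPM (67NR) in the tumour pools. Its log2 ratio of 0.39 (0.30 to 0.48) was 0.73 without the top cell of each pool, as 26% of the naive UMIs were in 1 cell. Ccl7, a related monocyte chemokine, differed by 0.52 (0.42 to 0.61), the neutrophil chemokine Cxcl1 by -0.26 and the cytokine Il6 by -0.15 (-0.33 to 0.03). The alarmin Il33 was higher by 0.81 and the pattern-recognition protein Ptx3 by 0.77. Of 9 counted genes in the list of myeloid-attracting factors, 2 were past 2-fold higher. They were Ccl5, with 69 and 8 UMIs, and Cxcl5, with 49 and 4, and both had higher CPM in the second naive pool (143.1 and 27.6) than after LPS (18.0 and 12.8).

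The subclass values of these genes rested in part on single cells. In Pi16/Dpp4-type fibroblasts Ccl2 was higher after LPS by 1.12, with 2852 and 379 UMIs, and in Ccl19-high fibroblasts it was lower, at -0.43, with 871 and 588 UMIs. Ccl7 was at 1.57 and -0.42 in the same order, and Il6 at 0.92 and -0.98. Among the 43 naive Ccl19-high cells, 1 held 330 of the 588 Ccl2 UMIs and 1 held 306 of the 675 of Ccl7. Without the top cell of each pool, Ccl2 was at 0.38 in Ccl19-high and 1.39 in Pi16/Dpp4-type cells, Ccl7 at 0.18 and 1.61, and Il6 at -0.95 and 0.95. The opposite direction thus remained for Il6 and not for the chemokines, which were above 0 in both subclasses against the stromal naive pool. For Ccl7 in Ccl19-high cells the interval was 0.004 to 0.36. The subclasses were not set against the second naive pool, in which Ccl2 over all fibroblasts was higher than after LPS. Ptx3 had 154 and 8 UMIs in Ccl19-high cells (3.27), but 142 of the 154 were in 1 cell, and without the top cells it was at 0.26 (-1.35 to 2.12). The class I genes were higher in both, with H2-D1 at 0.87 in Ccl19-high and 1.61 in Pi16/Dpp4-type cells. Irf7 was at 0.98 and 2.46. Nox4, a hydrogen peroxide-producing oxidase, had 376 UMIs after LPS and 39 in the naive pool (2.02, 1.54 to 2.54), of which 365 and 29 were in Pi16/Dpp4-type cells.

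**Figure D2:**
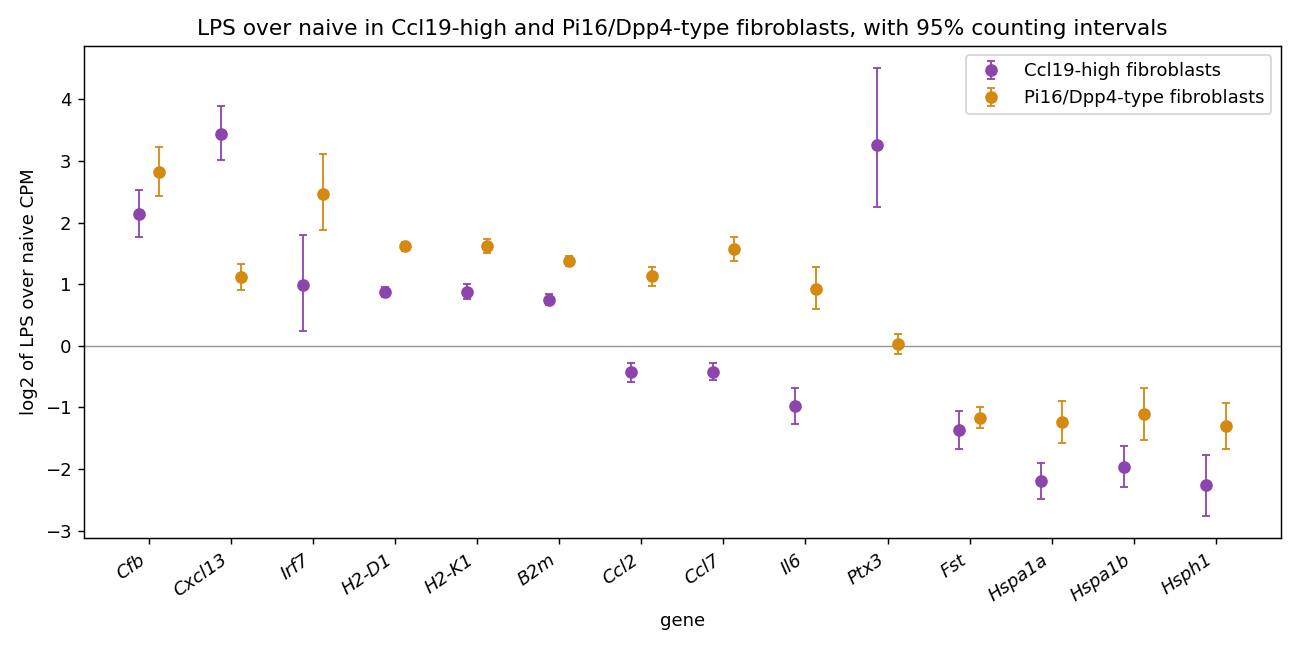
Log2 ratio of LPS over naive CPM for 14 genes in Ccl19-high (55 LPS and 43 naive cells) and Pi16/Dpp4-type fibroblasts (143 and 50 cells), with 95% counting intervals. Ccl2, Ccl7 and Il6 lie above 0 in Pi16/Dpp4-type and below 0 in Ccl19-high cells (without the top cell of each pool Ccl2 and Ccl7 are at 0.38 and 0.18 in the latter), and Fst and the 3 heat shock genes lie below 0 in both.

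All 6 adventitial markers were above 0, with a median of 0.96, and Dpp4, the peptidase that marks adventitial cells, was higher by 1.07. Pi16, Dpp4, Cd248 and Sema3c among them define the Pi16/Dpp4-type cells, so they are not independent of the larger share of that subclass. The markers outside that rule, Cd55 and Ackr3, were at 1.07 and 0.92. With the subclasses weighted by their shares of the naive UMIs, 122 fibroblast genes were at least 2-fold higher after LPS and 163 lower. The median of the matrix list ran from 0.08 to 0.67 over the settings outside the subclasses, this weighting among them. The part of the subclass share in the matrix values below was not tested beyond such changes of setting. Of 30 counted genes of the matrix list, 3 were past 2-fold higher, none lower, and the median was 0.43. The 3 were Fbln2 and Fbn1, which build microfibrils and elastic fibres (1.44 and 1.13), and Tnc, with 51 and 9 UMIs. None was past 2-fold against the second naive pool, where the list's median was -0.17. Col1a1 differed by 0.50 and Col3a1 by 0.89, and the second naive pool had 2570 CPM of Col3a1 against 2598 CPM after LPS. Prg4, lubricin, had 92 UMIs in 28 LPS cells and 0 in the naive pool, at least 12.9-fold higher against a floor of 3 UMIs in the naive pool, and 1 UMI in the second. Cilp, a matrix protein that binds transforming growth factor beta, had 211 and 13 UMIs (2.77, 1.97 to 3.71), with 11.6 CPM in the second naive pool against 55.2 CPM after LPS. Adamts19, a secreted protease, had 154 and 13 UMIs (2.32), with 48.7 CPM in the second naive pool against 40.3 CPM after LPS. Timp1, a protease inhibitor, was higher by 0.78. A pair of high-ranking genes came from single cells: all 110 UMIs of Lyzl4 were in 1 LPS cell, as were 80% of the 56 UMIs of H19.

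Heat shock genes formed the clearest lower group. Hspa1a, an inducible Hsp70 chaperone, had 369 UMIs after LPS and 713 in the smaller naive pool, 96.5 and 442.4 CPM (log2 ratio -2.20, -2.38 to -2.01). The second naive pool was at 278.9 CPM and the tumour pools at 201.8 CPM (4T1) and 217.6 CPM (67NR), so LPS fibroblasts were the lowest of 5 pools. Its twin Hspa1b, whose reads can be split with Hspa1a, was at 75.6 and 302.8 CPM, the Hsp70 nucleotide exchange factor Hsph1 at -1.84, the co-chaperones Dnajb1 and Bag3 at -1.53 and -1.14, and Hsp90aa1 at -1.25. In all, 6 of 15 chaperone genes were past 2-fold lower and none higher, with a median of -0.86. Against the second naive pool the median was -0.44, and 5 of the 15 were past 2-fold lower than both (all named above but Hsp90aa1). The 18 immediate early genes were all below 0, with 2 past 2-fold (Egr3 and Ier2) and a median of -0.61, or -0.25 against the second naive pool. The 8 counted contractile genes were likewise all below 0, with a median of -0.53, or -0.26 against the second naive pool. Immediate early genes are known to be induced by tissue dissociation. In fibroblasts they were lower along with the chaperones. In endothelial cells the immediate early median was -0.23, with 1 of 18 past 2-fold lower, beside a chaperone median of -0.56. The part of dissociation in the lower chaperone values was not tested.

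Among single genes, Fst, the secreted activin antagonist follistatin, was at 251.3 CPM after LPS against 605.0 and 600.0 CPM in the naive pools (-1.27, -1.40 to -1.14). The 4T1 and 67NR pools had 238.6 and 202.0 CPM, so Fst was lower in all 3 challenged pools than in either naive pool. Zbtb16, a transcription factor induced by glucocorticoids, was lower by 1.26 on the log2 scale. Inmt, an amine methyltransferase, was at 300.5 and 601.2 CPM, with 224.5 CPM in the second naive pool. The fatty acid binder Fabp4 was at -2.24 in all cells and at 0.86 within Pi16/Dpp4-type cells. Arc, an activity-induced gene, was at -2.25 with 30 and 60 UMIs. Hbegf, an EGF-family growth factor, and Npas2, a clock transcription factor, were at -1.98 and -2.08, and the second naive pool had 14.5 CPM of Hbegf and 10.9 CPM of Npas2, close to 14.6 and 9.41 CPM after LPS. For Cdh9, Ccdc163 and Spata7, between 77% and 85% of the naive UMIs were in 1 cell. Frmpd4, Il1rapl1, Grik2, Wdr95 and Gfod2 had 36 to 97 naive UMIs, of which 1 cell held between 33% and 42%.

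In endothelial cells 13 interferon genes, 3 MHC class II genes and 6 cell cycle genes of the lists were past 2-fold higher after LPS. The lower genes included 5 chaperones, 3 NF-kB-linked genes and the venule mucin Glycam1. Of 7990 genes counted, 121 were at least 2-fold higher after LPS (1.51%) and 113 at least 2-fold lower (1.41%), 2.93% either way. The second library held 1 naive endothelial cell, so these counts have no comparison between naive pools. Leaving out the top cell of each pool took 27 of the 234 under 2-fold.

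Ifit1 had 273 UMIs after LPS and 80 in the naive pool, 151.6 and 44.9 CPM, a log2 ratio of 1.76 (1.39 to 2.14). The tumour pools had 27.7 CPM (4T1) and 59.0 CPM (67NR), so the LPS pool was the highest of 4. Ifit2, of the same family, was at 86.1 and 26.4 CPM (1.71, 1.23 to 2.21). Irf7 was detected in 127 of 170 LPS and 92 of 195 naive cells, at 359.4 and 121.7 CPM (1.56, 1.34 to 1.79). Isg15, the ubiquitin-like modifier, was at 448.3 and 175.0 CPM (1.36, 1.17 to 1.55), Rsad2 at 127.8 and 47.7 CPM (1.42), and Zbp1, a sensor of Z-form nucleic acids, at 131.1 and 48.8 CPM (1.43). The 67NR pool was above the LPS pool for Zbp1 (148.9 CPM) and was nearer to it than naive for Isg15 (341.9 CPM). Of 26 counted genes of the type I interferon list, 13 were past 2-fold higher and none lower, all 26 were above 0, and the median was 0.90 against 0.00 for all genes. The interferon-gamma-type GTPase list had 2 of 17 past 2-fold, Gbp3 (1.45) and Gbp2 (1.02), and a median of 0.43. Irf7 and Isg15 were higher in blood-type cells, those without a UMI of Prox1, Lyve1, Mmrn1, Reln or Flt4, by 1.23 and 1.40. In lymphatic-type cells, with 2 or more such UMIs, the values were 1.96 and 1.42.

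Class II genes were also among the higher ones. H2-Eb1, a class II beta chain, had 271 UMIs in 53 of 170 LPS cells and 70 UMIs in 24 of 195 naive cells, 150.5 and 39.3 CPM (1.94, 1.56 to 2.34). The alpha chain H2-Aa was at 78.9 and 28.0 CPM (1.49, 1.02 to 1.99). The 67NR pool was higher still, at 185.8 and 131.2 CPM, and the 4T1 pool was at 24.6 CPM for both. Of 6 counted class II genes, 3 were past 2-fold higher (H2-Eb1, H2-Aa and the peptide-loading subunit H2-DMa), and the median was 0.97. In blood-type cells H2-Ab1 was at 1.47 and the invariant chain Cd74 at 1.34, and in lymphatic-type cells at 0.06 and 0.04. Monocyte and macrophage markers summed to 41 and 43 UMIs, B cell markers to 3 and 6 and dendritic cell markers to 154 and 210. The class rule had already asked for no Ptprc, and 1 dendritic cell marker was counted, Zbtb46, at -0.45. A part of immune cells in the class II values was not tested. The class I list had the same median in both classes, 0.41, but 0 of its 19 members were past 2-fold in endothelial cells. H2-D1 was at 0.64 and B2m at 0.45. Between the classes the H2-D1 ratio differed by 0.63 on the log2 scale (interval 0.58 to 0.69 by a normal approximation to the counts).

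The interferon-induced T cell chemokines went apart by vessel type. Cxcl10 was at 0.27 in all cells, at 1.53 in blood-type cells (934 and 319 UMIs) and at -1.13 in lymphatic-type cells (528 and 1115 UMIs). Cxcl9 was at 0.44, 1.40 and -0.96. The lymphatic-type pools held 36 cells each, and the vessel-type values were not checked without their top cells. Over the settings outside the subclasses, Cxcl10 in all endothelial cells ran from 0.11 to 2.02 and Cxcl9 from 0.22 to 1.49.

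Cell cycle genes were higher through few cells. Top2a, the topoisomerase of dividing cells, had 129 UMIs in 7 LPS cells and 13 UMIs in 3 naive cells (3.30, 2.47 to 4.24). The proliferation marker Mki67 had 46 and 4 UMIs (3.51), the replication factor Pclaf 94 and 11 (3.08), the mitotic spindle protein Prc1 47 and 3 (3.96) and the mitotic kinase Cdk1 47 and 7 (2.73). The histone genes Hist1h2ap and Hist1h2ae had 66 and 1 UMIs each, and Hist1h1b 58 and 1, with the caution that histone copies can share reads. The cytokinesis formin Diaph3 had 62 and 6 UMIs (3.36) and the centromere protein Cenpp 91 and 14 (2.69). Of 10 counted proliferation genes, 6 were past 2-fold higher, with a median of 1.78, and 4 stayed counted, with a median of 0.0208, without the cycling cells given next. Cells with at least 5 UMIs over Mki67, Top2a, Cdk1, Pclaf, Nusap1 and Prc1 were 6 of 170 after LPS (3.53%, 1.31 to 7.52) and 1 of 195 in the naive pool (0.513%). The share thus rested on 7 cells, and in fibroblasts there were 1 and 0 such cells. Slfn9, a Schlafen family gene, had 86 and 11 UMIs (2.95). Tnfrsf11b, the RANKL decoy receptor osteoprotegerin, was more spread, with 46 UMIs in 20 LPS cells and 4 UMIs in 4 naive cells (3.51, 2.06 to 5.45). Ccl5 had 131 and 6 UMIs (4.43), 63% of the LPS UMIs in 1 cell. All 83 LPS UMIs of the scavenger receptor Marco and 68% of the 93 of the noncoding RNA Meg3 were in 1 cell.

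**Figure D3:**
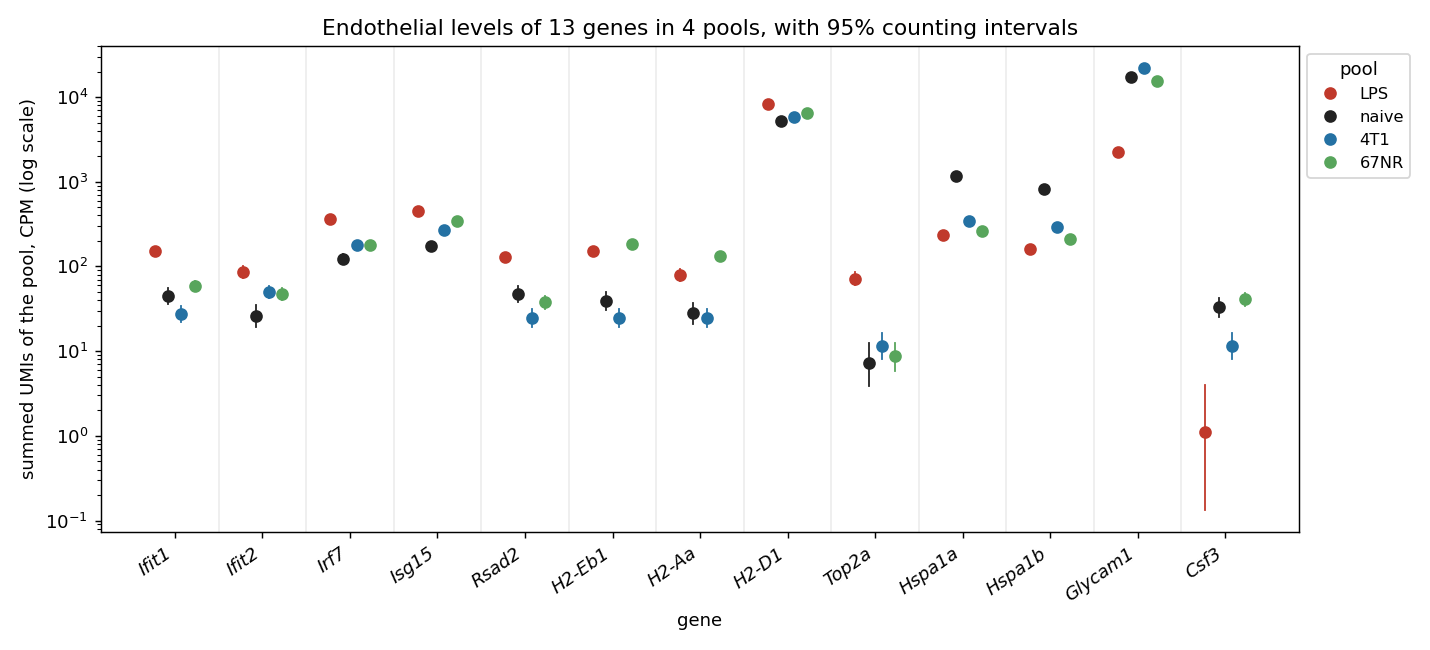
Endothelial levels of 13 genes as summed UMIs in CPM (log axis) in the LPS, naive, 4T1 and 67NR pools, with 95% counting intervals. The interferon genes Ifit1, Ifit2, Irf7, Isg15 and Rsad2 stood highest after LPS, and Glycam1, Csf3, Hspa1a and Hspa1b lowest.

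Glycam1, the mucin of high endothelial venules that carries L-selectin ligands, had 4030 UMIs after LPS and 30341 in the naive pool. Its levels were 2239 CPM after LPS, 17016 CPM in naive, 21819 CPM in 4T1 and 15375 CPM in 67NR endothelial cells, a log2 ratio of -2.93 (-2.97 to -2.88), 7.60-fold lower than naive. Cells with 100 or more Glycam1 UMIs were 8 of 170 after LPS, 17 of 195 in naive, 29 of 234 in 4T1 and 37 of 274 in 67NR. The top cells held 2321, 360 and 235 UMIs after LPS and 9477, 7598 and 4197 in the naive pool, so both fewer cells and fewer UMIs per high cell went into the sum. All 8 and all 17 of these cells also had at least 3 UMIs of immune cell markers, with a median of 10.5 and 11. They were deep cells, with medians of 24496 and 20904 UMIs, and the cut of 3 is on raw UMIs. The immune markers also include Xbp1, which was counted in endothelial cells. Whether these UMIs came from immune cells was not tested. Leaving out cells of 3 or more immune marker UMIs took away the whole high group and gave a ratio of 1.35 on the remaining UMIs. Madcam1, the mucosal addressin, had 23 and 135 UMIs (-2.57, -3.27 to -1.92). Other genes of the venule differed less, with Chst4, a sulfotransferase for L-selectin ligands, at -0.31 (-0.84 to 0.22), Fut7, their fucosyltransferase, at -0.44, the autotaxin gene Enpp2 at -0.20 and Ackr1, the venule chemokine receptor, at -0.71. Of 16 genes in the addressin and venule list, 3 were past 2-fold lower, the third being Vcam1 (-1.04), an adhesion molecule that was at 0.09 in blood-type cells. Sele and Selp, the selectins of activated endothelium, were at -0.32 and -0.27, and Icam1 at 0.05 (-0.10 to 0.19). The median of the list was -0.31. Without cells of 3 or more immune marker UMIs it was 0.50, with Ackr1 at 0.61, Sele at 1.85 and Selp at 1.21, and in blood-type cells Sele was at 0.81 and Selp at 0.45, so the direction of these genes depended on the cells taken.

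The chaperones were lower in endothelial cells too. Hspa1a had 420 and 2073 UMIs, 233.3 and 1163 CPM, against 342.3 CPM (4T1) and 264.6 CPM (67NR), a log2 ratio of -2.32 (-2.47 to -2.17). Here the naive pool stood above all 3 others. Hspa1b was at -2.35, Hsph1 at -1.41, and Dnajb1 and Bag3 both at -1.18. All 15 chaperone genes were below 0, 5 of them past 2-fold, with a median of -0.56. The interval of the difference between fibroblasts and endothelial cells for Hspa1a was -0.12 to 0.36 and took in 0.

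Some NF-kB-linked and myeloid-attracting genes were lower in endothelial cells after LPS. In the NF-kB target and feedback list 20 of 22 genes were below 0, with 3 past 2-fold lower (Cebpd, Cebpb and Vcam1) and a median of -0.37. Cebpd, an acute-phase transcription factor, was at 147.2 and 351.1 CPM (-1.25, -1.47 to -1.04). Csf3, the granulocyte growth factor, had 2 UMIs after LPS and 59 in the naive pool (-4.90, -7.98 to -2.98), with 51% of the naive UMIs in 1 cell. Cxcl1 was at 436.0 and 915.3 CPM (-1.07, -1.19 to -0.95) and the Ccr6 ligand Ccl20 at -1.24. Ccl7 was at -1.92, with 53% of the 172 naive UMIs in 1 cell, and at 0.96 under a stricter class rule that asked for 4 UMIs over Pecam1 and Cdh5. The myeloid-attracting list had 1 of 8 counted members past 2-fold higher and 4 lower, with a median of -0.89, and 0.34 under the stricter rule. Fibroblast markers, at 388 and 605 UMIs, moved with Ccl7, and their part in it was not tested.

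Tlr4 itself had 54 and 76 UMIs in endothelial cells, 30.0 and 42.6 CPM (-0.51, -1.04 to 0.02). Ly96 was at -0.44 and Myd88 at -0.56, and Lbp was higher by 1.31 (0.74 to 1.91). In the lymphatic list 4 of 13 counted members were past 2-fold higher and 2 lower. The higher ones were Mmrn1, a matrix multimerin (1.39), Ackr4, the scavenger of Ccl19 and Ccl21 (1.19), the hyaluronan receptor Lyve1 (1.04) and Marco, whose LPS UMIs lay in 1 cell, and without the top cells 3 were higher. The lower ones were Madcam1 and Ccl20. Sema3a, a guidance cue of lymphatic endothelium, was at -2.04, with 102 of 103 LPS and 418 of 419 naive UMIs in lymphatic-type cells, and Bmp2, a morphogen, at -1.54. Kcnj2, a potassium channel (-2.70), Hs6st3, a heparan sulfate sulfotransferase (-2.37), Dpyd, a pyrimidine-degrading enzyme (-2.17), Hk2, a hexokinase (-3.10, and 0.0836 without cells of 3 or more immune marker UMIs), and S100a4, a calcium-binding protein (-2.75), were lower as well. Tenm3 (-2.30) and Pcdh15 (-2.70), adhesion molecules, were lower in all cells together but at 0.92 and 3.23 in blood-type cells. Pf4, platelet factor 4, was at -2.07. It is 1 of the 4 platelet markers summed above, and the other counted marker of that list, Itga2b, was at -0.53. Of the 58 naive UMIs of Tas1r1, 93% were in 1 cell. Of 17 counted capillary and arterial genes none was past 2-fold, with a median of 0.00.

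**Figure D4:**
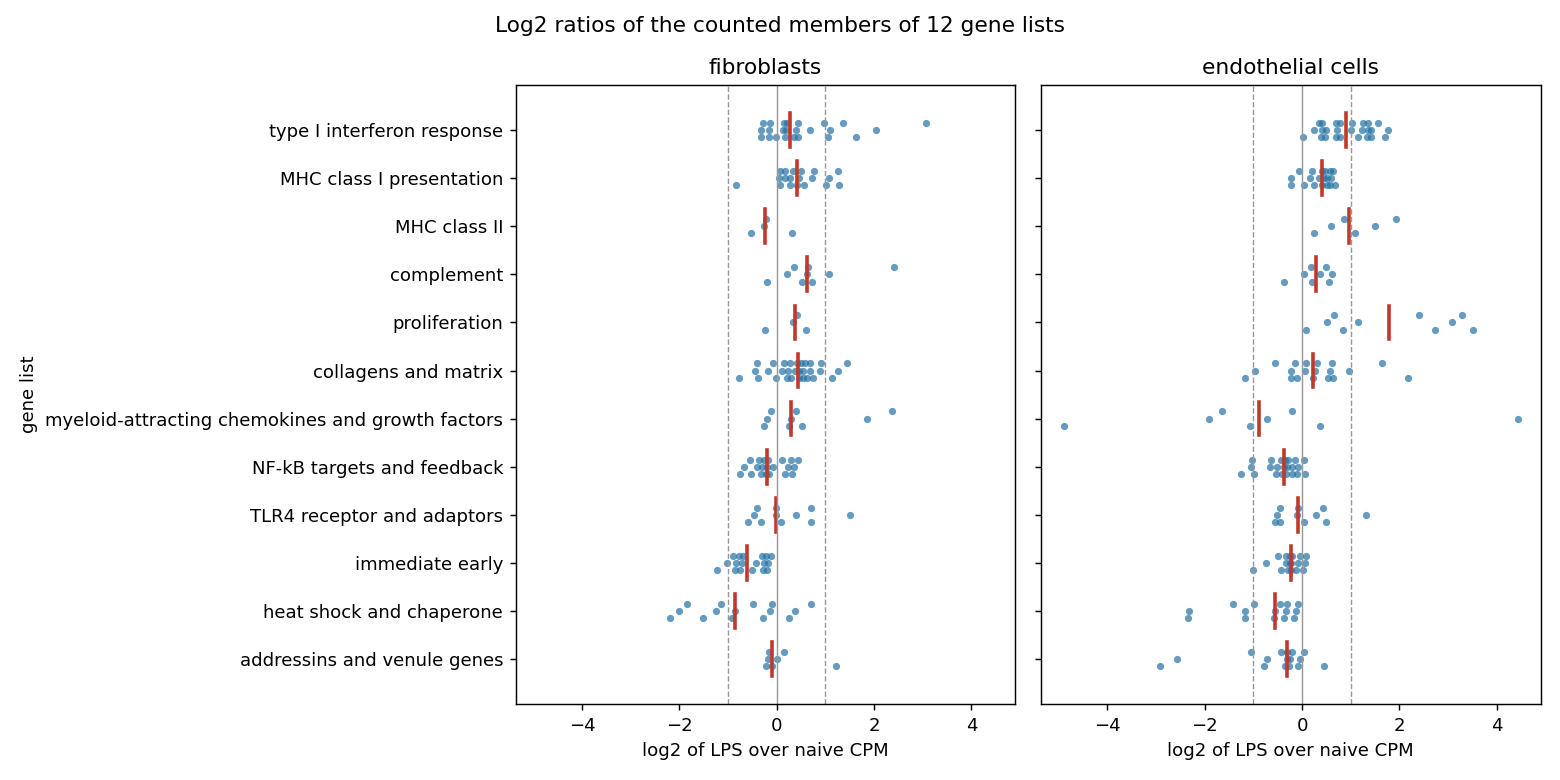
Log2 ratio of LPS over naive CPM for each counted member (points) of 12 gene lists in fibroblasts and endothelial cells, with the list median as a red bar and dashed lines at 2-fold. All 26 interferon genes lie above 0 in endothelial cells, and the heat shock medians are -0.86 in fibroblasts and -0.56 in endothelial cells.

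Some genes were past 2-fold in both classes. For scale, 1.61% of genes counted in fibroblasts and 1.51% in endothelial cells were past 2-fold higher, and 2.04% and 1.41% lower. The size of the overlap was not tested. Of 7209 genes counted in both, 11 were higher in both: Bst2, Ccl5, Ifi27l2a, Ifit1, Ifit3b, Irf7, Lbp, Lgals3bp, Rsad2, Slfn2 and Thy1. Most of these are interferon-stimulated genes. In fibroblasts, 2 of the 11, Irf7 and Lbp, were past 2-fold above both naive pools, and without the top cells Ifit3b was at 0.79. Lower in both were 12 genes, of which 6 are chaperones or their partners (Bag3, Dnajb1, Dnajb4, Hspa1a, Hspa1b and Hsph1), beside Alcam, Caprin2, Nxph1, Spata7, Tll1 and Zbtb16. Of these 12, 8 were past 2-fold below both naive fibroblast pools (Alcam, Bag3, Dnajb1, Hspa1a, Hspa1b, Hsph1, Tll1 and Zbtb16). Without the top cells Alcam was at -0.82 and Spata7 at -0.00554 in fibroblasts, and Tll1 at -0.94 in endothelial cells. Cfb stood further from naive in fibroblasts, 2.41 against 0.55, a difference of 1.86 (1.56 to 2.17). Irf7 was 2.04 and 1.56, a difference of 0.47 (0.02 to 0.94). Isg15 was 0.44 in fibroblasts and 1.36 in endothelial cells, a difference of -0.91 (-1.19 to -0.64). Cxcl12 was -0.30 and 0.70, a difference with the interval -1.13 to -0.88. These differences come from the same pair of pools and carry no replicate check either.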

How the data were processed

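Axillary lymph node cells were profiled by 10x 3′ single-cell RNA-seq with hashtags. The authors' deposited matrices hold raw UMI counts per gene and hashtag for each cell, and the submitters' processing notes name Cell Ranger 7.0 and the mm10 build. From these counts, cells were assigned and classed by the thresholds given in the report, UMIs were summed per pool and class, and scaled to CPM. Log2 ratios carry exact conditional Clopper-Pearson 95% intervals (Python 3.11.15, scipy 1.17.1, pandas 2.3.3). The intervals were run on simulated Poisson counts, which hold no spread between cells or animals. That run therefore checked the calculation and cannot show how the intervals hold where single cells carry much of a sum. Genes with 50 or more UMIs over both pools were counted, and 2-fold either way was a description, not a test. Named per class were the 15 highest and 15 lowest genes by the interval bound nearest 0 among those past 2-fold, without immunoglobulin, T cell receptor, haemoglobin, mitochondrial and unnamed loci, then list members with the largest change and a set list of 30 genes such as Tlr4 and Ccl2. A few more genes were named after their values were seen. The members and gene lists were chosen with earlier results of these data known. Alternatives covered hashtag call, depth, mitochondrial share, thinning, scaling (edgeR 4.0.16 in R 4.3.3, and median of ratios), gene minimum, class rules, other cell types and subclasses. Doublets were not called beyond the hashtag and class rules. Mx1, Mx2 and Cxcl11 were not analysed here. Promoters were matched to the RefSeq table by symbol.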

Additional observations from a re-analysis of the deposited data

Results flagged for a closer look

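Gria3, a glutamate receptor subunit, was past 2-fold in opposite directions in the classes. Its log2 ratio of LPS over naive was 1.08 in fibroblasts (70 and 14 UMIs) and -1.65 in endothelial cells (57 and 177 UMIs). With 1 pool per condition the difference was not tested.

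Cells of neither class, which no comparison uses, held neutrophil and NK cell markers after LPS. The 6 neutrophil markers summed to 621 UMIs in 213 such LPS cells and 3 UMIs in 85 naive ones, with 464 UMIs of S100a9 in 4 cells. The 5 NK cell markers summed to 114 UMIs after LPS and 3 in the naive pool. Other immune markers did not share this direction. In 3545420 LPS and 1021494 naive UMIs of such cells, dendritic cell markers summed to 583 and 360, B cell markers to 140 and 117, and Ccl5 to 1011 and 2565.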

How the results depend on the processing

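No paired analysis was possible because each condition is 1 pool, and for the same reason no replicate could be left out. Asking that every second hashtag stay under 10 kept 1 LPS and 0 naive fibroblasts and 0 and 1 endothelial cells, and gave no value. Counts of genes at least 2-fold higher and lower in fibroblasts (144 and 182) were 359 and 282 with hashtags called at 10-fold, 53 and 27 with cells thinned to 1000 UMIs, 752 and 4064 with no gene minimum, 44 and 46 with a minimum of 200 UMIs, and 65 and 105 in Ccl19-high cells. TMM scaling gave 185 and 139, and median of ratios 186 and 138. Endothelial counts (121 and 113) were 16 and 23 thinned, 2067 and 2456 with no minimum and 24 and 39 at 200 UMIs, with 77 higher in blood-type and 170 lower in lymphatic-type cells. The 336 genes between naive pools became 390 with hashtags at 10-fold, 53 thinned, 4688 with no minimum and 77 at 200 UMIs, and 1003 with cells of 3 or more immune UMIs left out. The cause was not tested.

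Each list median covers the members that met the gene minimum under its setting, so the members can differ between settings. Among results past the thresholds used here (0.5 for a list median, 2-fold for a gene), directions turned for 2 list medians and 14 genes, the subclasses included. Outside the subclasses they turned for 1 of 10 such list medians and 8 of 67 such genes, and nearer to 0 for 24 of 43 list medians and 20 of 36 genes, so a direction given for a value near 0 is not stable over the settings. Under the stricter class rule the endothelial myeloid-attracting list was at 0.34 and Ccl7 at 0.96, and in venule-type cells the lymphatic list was at -0.28. Without cells of 3 or more immune UMIs, Spata7 in fibroblasts was at 0.94, and in endothelial cells Glycam1 was at 1.35, Hk2 at 0.0836 and Tenm3 at 0.35. In blood-type cells Pcdh15 was at 3.23, Tenm3 at 0.92 and Vcam1 at 0.0867. Cenpp without cycling cells was at -0.41. In fibroblasts, Ccdc163 was at 0.19 with hashtags at 10-fold, H19 at -0.20 with up to 1 Pecam1 UMI allowed, Hbegf at 0.76 and Nox4 at -1.59 in Ccl19-high cells, and Fabp4 at 0.86 and Ccl21a at 0.0198 in Pi16/Dpp4-type cells. The cause was not tested. Over the settings outside the subclasses, Cfb ranged from 1.90 to 2.62, Cxcl13 from 1.79 to 2.49, Irf7 in fibroblasts from 1.85 to 3.05, H2-D1 from 1.11 to 1.35 and Hspa1a from -2.35 to -1.99. Saa3 ranged from 3.49 to 9.25, and Ccl2 in fibroblasts from -0.31 to 0.73.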
